A study of Homo sapiens with 18 samples.

Results

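AMO1 cells are an established human line of multiple myeloma, a cancer of antibody-secreting plasma cells. The data described here are the 6 RNA-seq libraries whose cell line label is AMO1, out of 18 libraries of 3 myeloma lines in the series: 3 carry the label gN1E and 3 the label SCR, with the replicate letters A, C and D under each label. Per the study's methods, cells received a naked LNA-gapmeR at 5 µM when they were seeded and were collected after 48 h. The gapmeR was g#N1_E, directed at NEAT1, for the label gN1E and the scrambled g#SCR for the label SCR, as the labels have it, so all 6 cultures carried an oligonucleotide. GapmeRs of this kind are antisense oligonucleotides with locked ends that let RNase H cut the RNA they pair with, and the sequence of g#N1_E is not given in the sources used here. The 6 libraries come from 1 cell line, and nothing in the labels says that the letters stand for separately grown cultures, so p-values measure the spread between these libraries, which may be technical.

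NEAT1 is a long non-coding RNA that stays in the nucleus and forms the scaffold of paraspeckles, nuclear bodies built from its long transcript and a set of RNA-binding proteins. Paraspeckles hold back certain RNAs and proteins and enlarge under several kinds of cell stress. In myeloma cells NEAT1 has been tied to DNA repair and to the response to stress, which are 2 of the gene groups described below.

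NEAT1 (chr11:65422774-65445540, plus strand, hg38) was measured at 493, 576 and 539 CPM in the libraries labelled gN1E and 78.8, 81.7 and 94.6 CPM in those labelled SCR, where CPM are the counts of read pairs scaled to one common total by TMM and the 3 values follow the letters A, C and D. Each library labelled gN1E exceeded each one labelled SCR, by 6.31 times in the means (536 ± 41.3 against 85.1 ± 8.42 CPM, SD, n = 3). The log2 fold change, libraries labelled gN1E minus libraries labelled SCR, was 2.66 (SE 0.05, edgeR adjusted p = 9.87e-44), where the adjusted p is from the quasi-likelihood test of edgeR, with the letter as a block and adjusted by Benjamini-Hochberg. A two-sided exact permutation test over the 6 libraries gave p = 0.1, the smallest that 3 against 3 allow. NEAT1 therefore goes against the labels, since g#N1_E is meant to lower it. The names inside the 6 deposited tables exchange gN1E and SCR relative to the sample labels. Which libraries received g#N1_E is therefore not known from these data. The libraries are called by their labels throughout, and "higher with NEAT1" means higher in the libraries labelled gN1E, where NEAT1 was high. MALAT1, the abundant long non-coding RNA that lies next to NEAT1 on chromosome 11, was measured at 4753.1, 4841.7 and 5042.6 against 4500.2, 4989.4 and 5356.0 CPM (libraries labelled gN1E against those labelled SCR, each in the order A, C, D), with a log2 fold change of -0.02.

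The libraries labelled gN1E were shallower, with 28061606 to 49784737 counted read pairs against 53227560 to 66142827 in those labelled SCR. Plasma cell identity was checked by 9 defining genes, among them SDC1 (the surface proteoglycan CD138), IRF4, PRDM1 and XBP1. All 9 were tested, and their summed level ran from 14518.8 to 16165.4 CPM in the libraries labelled gN1E and from 13889.7 to 16206.5 CPM in those labelled SCR, most of it from SDC1. Of the 9, POU2AF1 was called lower. Genes that mark other cells were low or moderate: the 6 B cell markers summed to under 1 CPM in every library, and PAX5, CD22, S100A8, S100A9, KRT19, COL1A2, DCN and VWF had no read in any of the 6. Of the T and NK cell markers only CD3E, at 18.6 to 25.9 CPM, and CD3G, at 2.84 to 3.68 CPM, were above 1 CPM. The erythroid markers summed to 10.4 to 28.3 CPM under gN1E and 14.5 to 19.5 CPM under SCR, nearly all of it from the globin genes HBA1 and HBA2, neither of which was called by edgeR. Among 17 tested markers of other cells, KRT8 and CDH1 were called lower as NEAT1 was higher, neither of them without the block and with overlapping labels for KRT8, and the 5 epithelial markers summed to 7.78 to 9.80 CPM under gN1E and 11.3 to 13.8 CPM under SCR. Their part in the results below was not tested. In bulk RNA, fewer cells of a type and less RNA per cell cannot be told apart.

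**Figure D1:**
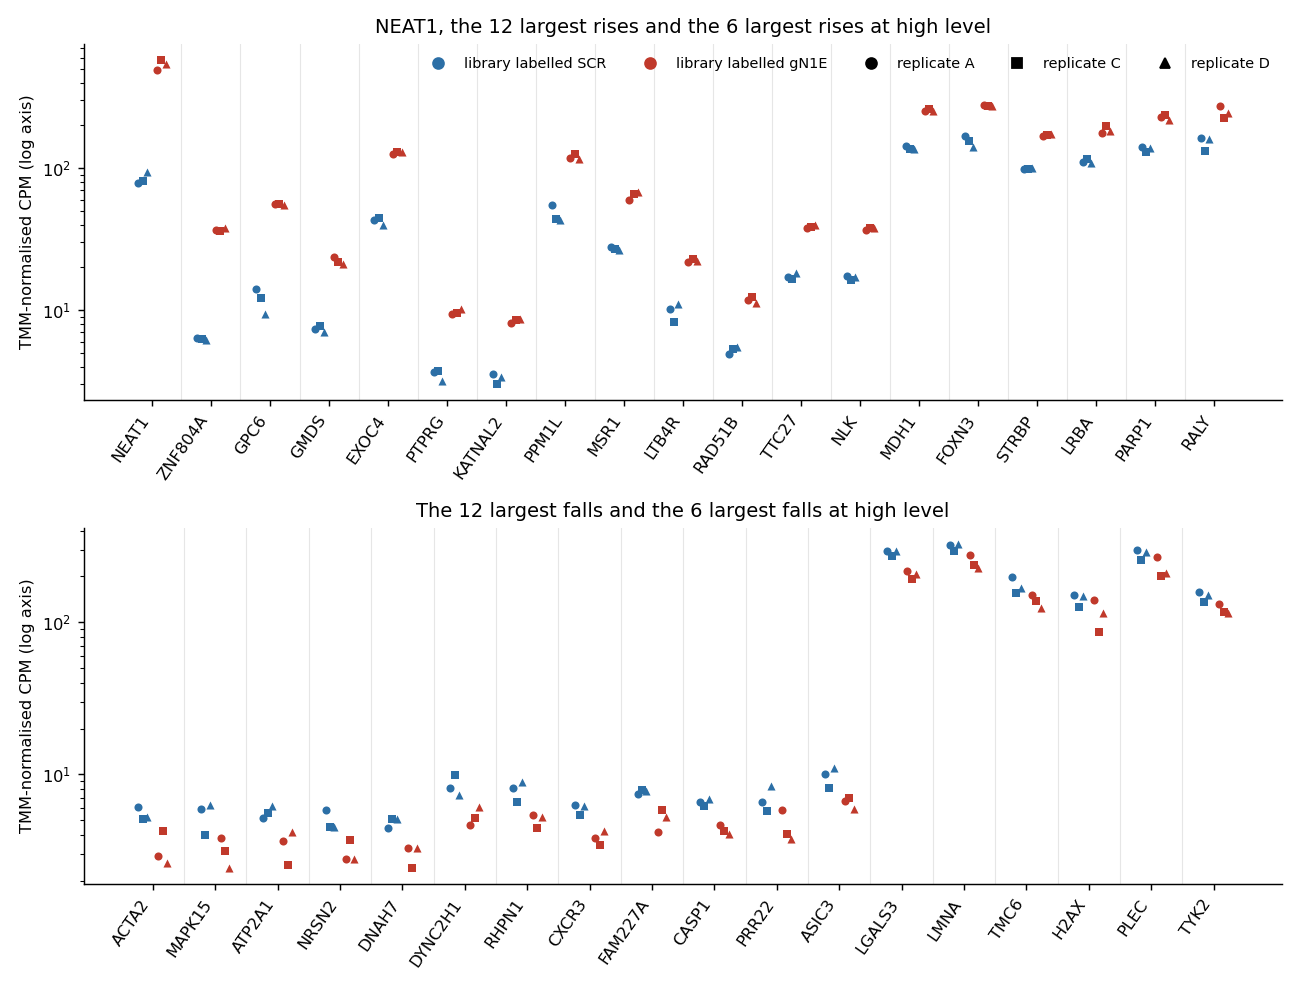
Levels of NEAT1 and of the genes that changed most, as TMM-normalised CPM on a log axis. Each point is 1 library (blue, labelled SCR; red, labelled gN1E; circle, square and triangle for the letters A, C and D); the labels do not overlap for any gene of the upper panel, and they overlap for PRR22, H2AX and PLEC in the lower panel.

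Of 22933 genes tested, 1394 passed an adjusted p of 0.05 (6.08%) in the quasi-likelihood test of edgeR, adjusted by Benjamini-Hochberg. 776 were higher with NEAT1 (3.38%) and 618 were lower as NEAT1 was higher (2.69%). Most changes were small. The median absolute log2 fold change was 0.26 among the higher genes and 0.30 among the lower ones, 640 of the higher (82.5%) and 538 of the lower (87.1%) changed by less than 1.5-fold, and 46 and 24 changed by at least 2-fold. The labels did not overlap for 726 of the higher genes, against 2173 of all tested genes that lay wholly above (9.48%), and for 334 of the lower genes, against 1902 that lay wholly below (8.29%). Protein-coding genes made up 697 of the higher and 543 of the lower calls, out of 13250 tested, and long non-coding RNA genes 53 and 55 out of 5520. Genes that rose were long: their median genomic span was 98.6 kb against 15.3 kb for genes that fell, and the share called higher grew from 0.841% of genes under 10 kb to 19.8% of genes over 300 kb. The share called lower was highest, 4.95%, at 10 to 30 kb.

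Both the number and the split of these calls moved with the design and the scaling. Without the letter block 473 genes passed (377 higher, 96 lower), all of them among the 1394. Scaled by library size only, 1590 genes passed and 33.3% of them were higher (529 higher, 1061 lower), against 55.7% of the 1394. Without the letter D 775 genes passed (535 higher, 240 lower), and without the letter A the lower calls numbered 411.

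**Figure D2:**
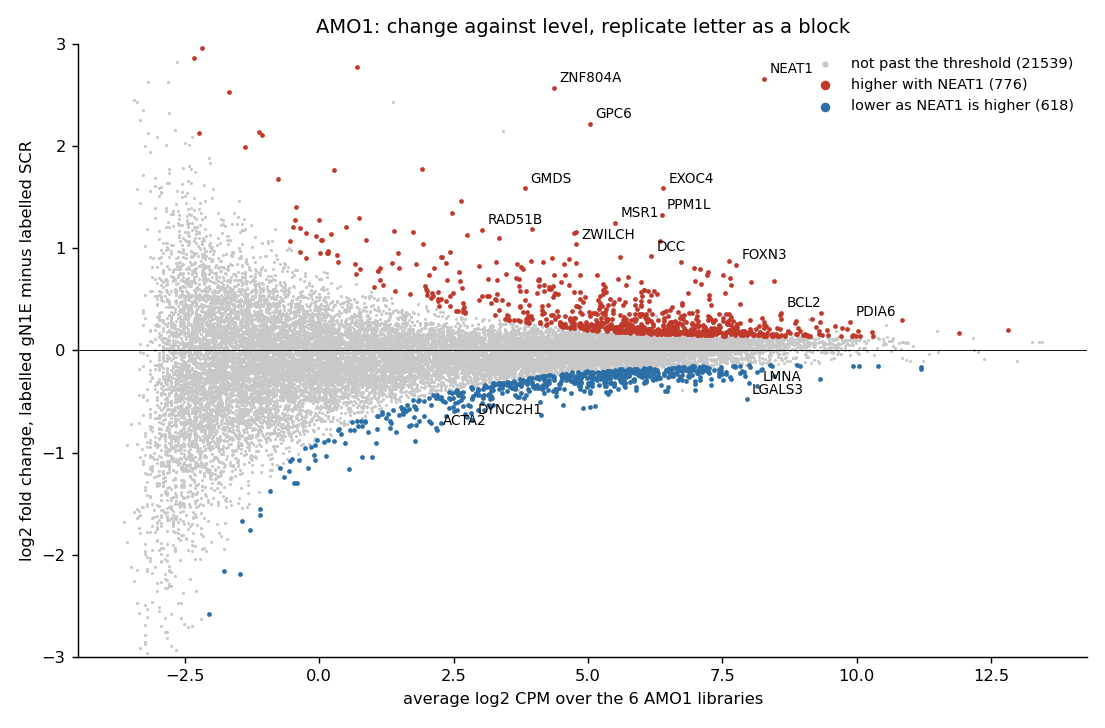
Log2 fold change (libraries labelled gN1E minus labelled SCR) against average log2 CPM for the 22933 genes tested, each point a gene, red or blue where the adjusted p was under 0.05. NEAT1 stands apart at high level, where the falls stayed small (LGALS3, -0.48; LMNA, -0.35); 28 points of low level lie outside the axis.

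The largest rises at an average log2 CPM of at least 2 belonged to 12 genes with no common pathway in their names, outside the 40 candidate targets of the study. ZNF804A (chr2:184598529-184939492), which encodes a zinc finger protein, was measured at 37.0, 36.1 and 38.0 against 6.33, 6.23 and 6.16 CPM, a rise of 5.93 times with a log2 fold change of 2.57 (SE 0.0795, edgeR adjusted p = 1.08e-33). GPC6 (chr13:93226807-94408020), a glypican, that is, a heparan sulphate proteoglycan held in the outer membrane, stood at 56.3, 55.6 and 54.8 against 14.2, 12.2 and 9.43 CPM. Its log2 fold change was 2.22 (SE 0.0761, edgeR adjusted p = 6.30e-23). In both genes the 3 libraries labelled gN1E differed little among themselves and lay far above those labelled SCR.

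GMDS (chr6:1623806-2245605), the enzyme that opens the synthesis of GDP-fucose, was at 23.7, 21.7 and 21.1 against 7.38, 7.76 and 6.98 CPM, with a log2 fold change of 1.59 (SE 0.0884, edgeR adjusted p = 2.10e-21). EXOC4 (chr7:133253073-134066589), a subunit of the exocyst that tethers secretory vesicles to the plasma membrane, was at 125, 129.6 and 129.7 against 43.4, 44.4 and 40.1 CPM, a 3.0-fold rise with a log2 fold change of 1.59 (SE 0.0526, edgeR adjusted p = 2.74e-32). It was the most abundant of the 12. The receptor tyrosine phosphatase PTPRG (chr3:61561569-62297609) was at 9.43, 9.58 and 10.2 against 3.67, 3.73 and 3.18 CPM and rose by 1.46 on the log2 scale. The next 6 members rose by between 1.16 and 1.35: KATNAL2, of the microtubule-severing katanin family, PPM1L, a phosphatase of the endoplasmic reticulum, MSR1, a scavenger receptor, LTB4R, a receptor for leukotriene B4, RAD51B, of homologous recombination, and TTC27. The last of the 12 was NLK, the nemo-like kinase, at 36.7, 37.8 and 38.0 against 17.4, 16.2 and 17.1 CPM and 1.15 (SE 0.0684, edgeR adjusted p = 3.04e-20). For all 12 the labels did not overlap. The same sign in each letter pair was a condition for choosing them.

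Among genes whose average log2 CPM was at least 7, the largest rises were those of MDH1, FOXN3, STRBP, LRBA, PARP1 and RALY. MDH1, the cytosolic malate dehydrogenase, was at 253, 262 and 251 against 143, 137 and 137 CPM, with a log2 fold change of 0.88 (SE 0.0456, edgeR adjusted p = 9.69e-23). FOXN3, a forkhead transcription factor, was at 279, 273 and 276 against 169, 155 and 141 CPM and rose by 0.84. PARP1, which adds ADP-ribose chains at DNA breaks, was at 229.6, 235 and 219 against 140.3, 131 and 138 CPM, with a log2 fold change of 0.74 (SE 0.0464, edgeR adjusted p = 2.52e-19). STRBP, a double-stranded RNA-binding protein, LRBA, a protein of vesicle traffic, and RALY, of the heterogeneous nuclear ribonucleoproteins, rose by 0.80, 0.74 and 0.71. The labels stayed apart in each of these 6 genes.

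Several of these genes overlap or adjoin others, which were looked up after their values were seen. LTB4R lies on chromosome 14 beside LTB4R2 and NOP9 on the same strand, and LTB4R2 (9.48, 11.4 and 10.3 against 5.18, 5.38 and 7.06 CPM) and NOP9 (65.7, 62.8 and 61.6 against 33.7, 31.6 and 36.3 CPM) rose by 0.83 and 0.91. MIR600HG, a long non-coding RNA gene on the strand of STRBP, rose by 0.86. PIAS2, on the strand opposite to KATNAL2, rose by 0.42. By contrast WDPCP, opposite to MDH1, and EIF2S2, opposite to RALY, had log2 fold changes of -0.00 and -0.00, with overlapping labels. Reads of neighbours on one strand could not be told apart where their exons overlap.

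The genes that rose most shared a short stretch of sequence with NEAT1, and it is printed here because it ran through most of them. The 22519 words of 12 bases in NEAT1 that at least 5 tested genes carry on their transcribed strand were each scored by the mean log2 fold change of those genes, relative to genes of like span, times the square root of their number. The highest score, 4.31, fell to a word found in 115 genes with a median relative log2 fold change of 0.348, and the best word elsewhere in NEAT1 scored 1.71 (135 genes, median 0.0432). With the overlapping words that scored above every word elsewhere, the stretch covers 15 bases at chr11:65425851-65425865 (hg38, plus strand), bases 3078 to 3092 of the transcript. Below are 25-base windows from hg38, 5′ to 3′ on the transcribed strand of each gene, with the longest run shared with the stretch in capitals. The first is NEAT1 itself. The next 8 are genes among the 12 largest rises. HNRNPK, EXT2, SEMA4D and PRIM2 are members of the gene groups below, ERC2, SYNJ1, BLTP1, FOXP1 and MAP9 share all 15 bases, and DNAH7 is a gene that fell.
NEAT1: taaccTTTTGTGGTCACTGTaaaat
ZNF804A: aatgaTTTTGTGGTCACTttgtcct
GPC6: attttTTTTGTGGTCtcagagtagt
GMDS: tgcatacTTGTGGTCACTGcctttc
EXOC4: tgtagcTTTGTGGTCACTaaagtat
PTPRG: agttctcTTGTGGTCACTGgaagat
LTB4R: gctgctgcTGTGGTCACTGTatatt
TTC27: tatccTTTTGTGGTCACaagattct
NLK: aagaaaTTTGTGGTCACTGcatcaa
HNRNPK: ccttgcTTTGTGGTCACTGTaacat
EXT2: actgagTTTGTGGTCACTGTcattt
SEMA4D: acccagTTTGTGGTCACTGgtgaga
PRIM2: gctatTTTTGTGGTCACctttgtgg
ERC2: ctgggTTTTGTGGTCACTGTgctct
SYNJ1: gcctaTTTTGTGGTCACTGTcaagt
BLTP1: ctactTTTTGTGGTCACTGTtaggt
FOXP1: atggtTTTTGTGGTCACTGTgtaac
MAP9: gcagaTTTTGTGGTCACTGTcctct
DNAH7: ttgtacgTTGTGGTCACTGTattag

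The run of ZNF804A lies at chr2:184666573-184666585, that of GMDS at chr6:2154535-2154546, that of EXOC4 at chr7:134056122-134056133 and that of NLK at chr17:28057338-28057350, all within introns, while those of HNRNPK at chr9:83969047-83969060 and SYNJ1 at chr21:32630174-32630188 overlap exons. Of the 12 largest rises, 8 shared at least 12 bases. GPC6 shared 10 bases of the stretch, and 13 when the 25-base window of NEAT1 was used in place of the 15 bases. Of the 12 largest falls 1 shared at least 12 bases, DNAH7 with 13. Of the 6 abundant rises 5 shared at least 11 bases and of the 6 abundant falls none did.

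Across all genes tested, 400 shared 12 or more bases, in introns for 350 of them and in an exon for 50. Of these 137 were called higher and 4 lower, and their median log2 fold change was 0.18, against -0.02 for the other genes (within the letter pairs A, C and D the 400 had medians of 0.157, 0.205 and 0.204). These 137 are 17.7% of the 776 genes called higher. With 11 or more bases the share was 44.2% of the genes called higher, 3.40% of those called lower and 7.54% of all tested. Since the stretch was chosen on these same log2 fold changes, these values describe the calls and test nothing. Whether g#N1_E pairs with the stretch was not tested.

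A longer run went with a higher share of calls. Among the 11433 genes whose average log2 CPM was at least 2, of which 6.31% were called higher, the share called higher was 1.92% at a run of 7 or fewer bases, 9.78% at 10, 22.3% at 11, 39.1% at 12 and 69.7% at 13 or more. On the opposite strand of the same genes it was 17.3% at 13 or more. The same was counted within bins of genomic span. Of genes of 30 to 100 kb, 2.17% were called higher at a run of 9 or fewer and 67.7% (21 of 31) at 13 or more, and of those of 100 to 300 kb the shares were 2.78% and 51.6% (16 of 31). The bin of 10 to 30 kb with 13 or more bases held 3 genes. The stretch was chosen on these log2 fold changes, by words on the transcribed strand. The growth of the shares with the run and the gap between the strands therefore test nothing.

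Genes with the whole stretch differed in their change. Of 6 genes that share all 15 bases, which were named after their values were seen, ERC2 rose by 0.97, SYNJ1 by 0.57, BLTP1 by 0.44 and RB1CC1 by 0.44. FOXP1, a transcription factor of B cells, stood at 25.1, 27.6 and 25.6 against 24.4, 28.5 and 24.4 CPM and MAP9, a microtubule-associated protein, at 6.94, 5.73 and 7.07 against 5.62, 7.57 and 7.11 CPM, with overlapping labels and log2 fold changes of 0.02 and -0.03. The 4 genes that fell with 12 or more bases were DNAH7 (-0.69), C2orf88 (-0.46), TMEM201 (-0.19) and CACNA1A (-0.19).

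**Figure D3:**
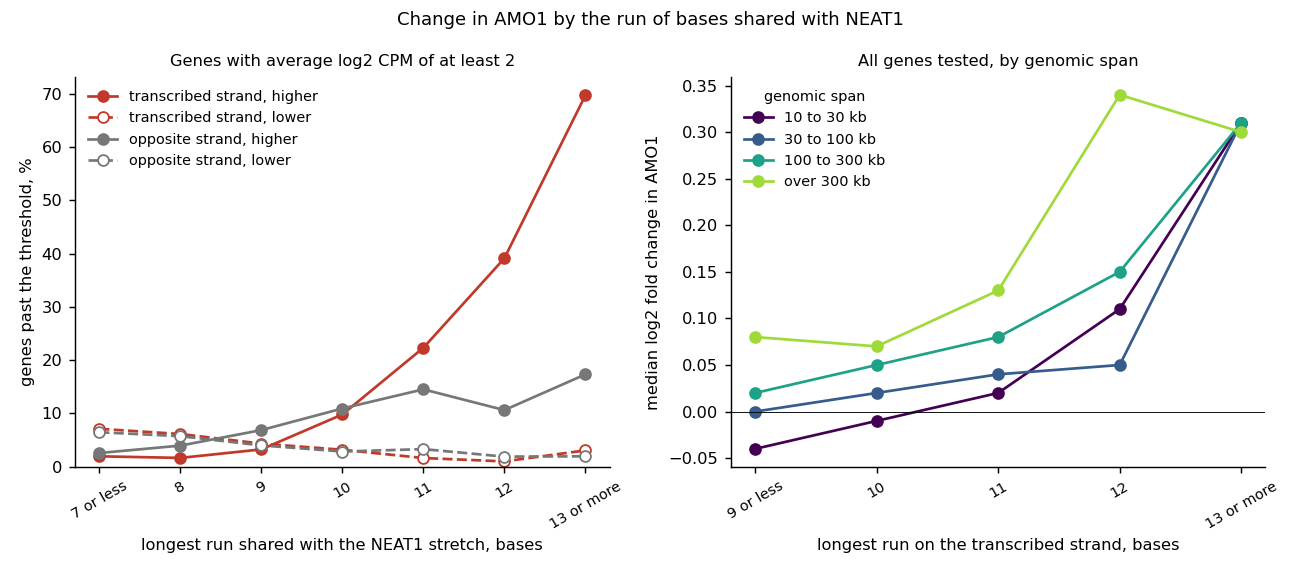
Left, share of genes called higher (filled) or lower (open) in AMO1, in percent, by the longest run shared with the NEAT1 stretch on the transcribed (red) or the opposite strand (grey), among genes whose average log2 CPM was at least 2. Right, median log2 fold change by that run for bins of genomic span. The share called higher on the left reaches 69.7% at 13 or more bases on the transcribed strand. The point of the 10 to 30 kb bin at 13 or more rests on 3 genes. The stretch was chosen on these log2 fold changes by words on the transcribed strand, so neither panel is a test.

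Among genes whose average log2 CPM was at least 2, the largest falls were smaller than the largest rises. ACTA2, the smooth muscle actin, was measured at 2.91, 4.24 and 2.60 against 6.08, 5.12 and 5.24 CPM, with a log2 fold change of -0.78 (SE 0.145, edgeR adjusted p = 0.000131). MAPK15, an atypical mitogen-activated protein kinase, was at 3.84, 3.15 and 2.43 against 5.91, 4.02 and 6.25 CPM (-0.76, SE 0.149, edgeR adjusted p = 0.000326), and this call was lost without the letter D. ATP2A1, a calcium pump of the sarcoplasmic reticulum, was at 3.64, 2.55 and 4.20 against 5.14, 5.6 and 6.23 CPM and fell by 0.71. In these genes the labels did not overlap, but the gap between them was narrow beside that of the large rises. Dynein heavy chains were among the falls: DYNC2H1, the motor of retrograde transport in cilia, at 4.65, 5.16 and 6.15 against 8.19, 9.97 and 7.37 CPM (-0.68, SE 0.121, edgeR adjusted p = 5.93e-05), and DNAH7, of the axoneme, at 3.26, 2.44 and 3.28 against 4.42, 5.07 and 5.09 CPM (-0.69). CXCR3, a chemokine receptor, was at 3.82, 3.43 and 4.24 against 6.26, 5.44 and 6.16 CPM (-0.64), and CASP1, the inflammasome protease, at 4.68, 4.24 and 4.06 against 6.56, 6.23 and 6.87 CPM (-0.59). NRSN2, RHPN1, FAM227A, PRR22 and ASIC3 completed the 12, with log2 fold changes of -0.71 to -0.58. The labels overlapped for PRR22. The calls of PRR22 and ASIC3 were lost without the letter D that of NRSN2 without the letter A and that of PRR22 also without the block.

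At an average log2 CPM of at least 7 the largest fall was that of LGALS3, which encodes the sugar-binding protein galectin-3, at 218, 193 and 208 against 295, 271 and 296 CPM and -0.48 (SE 0.0445, edgeR adjusted p = 1.47e-12). LMNA, which encodes the A-type lamins of the nuclear envelope, was at 277, 239.7 and 226 against 323, 292 and 327 CPM (-0.35, SE 0.0482, edgeR adjusted p = 8.16e-07). In both genes every library labelled gN1E lay below every library labelled SCR. TMC6, H2AX, PLEC (plectin, a linker of intermediate filaments) and TYK2 (the kinase of interferon receptors) fell by 0.34, 0.33, 0.32 and 0.29. For H2AX and PLEC the labels overlapped, since the letter A was the highest library under both labels. The calls of TMC6, H2AX and PLEC were lost without the block, and that of H2AX also in DESeq2 and with an offset for span.

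Genes beyond the 40 candidate targets were then grouped in 29 lists by function. Each list is given by how many of its tested members were called, beside 3.38% higher and 2.69% lower over all genes tested, and by the median log2 fold change of its tested members, beside -0.01 over all genes. Among the 11433 genes whose average log2 CPM was at least 2, the shares were 6.31% higher and 4.70% lower. The share called higher grew with level, to 7.19% at 5 to 7 and 12.2% at 7 or more (5.25% and 3.38% lower). The study chose the 40 targets on its AMO1 knock-down libraries, those described here, and on separate AMO1 cells made to overexpress NEAT1. All 40 were called higher here and are left out of every list.

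**Figure D4:**
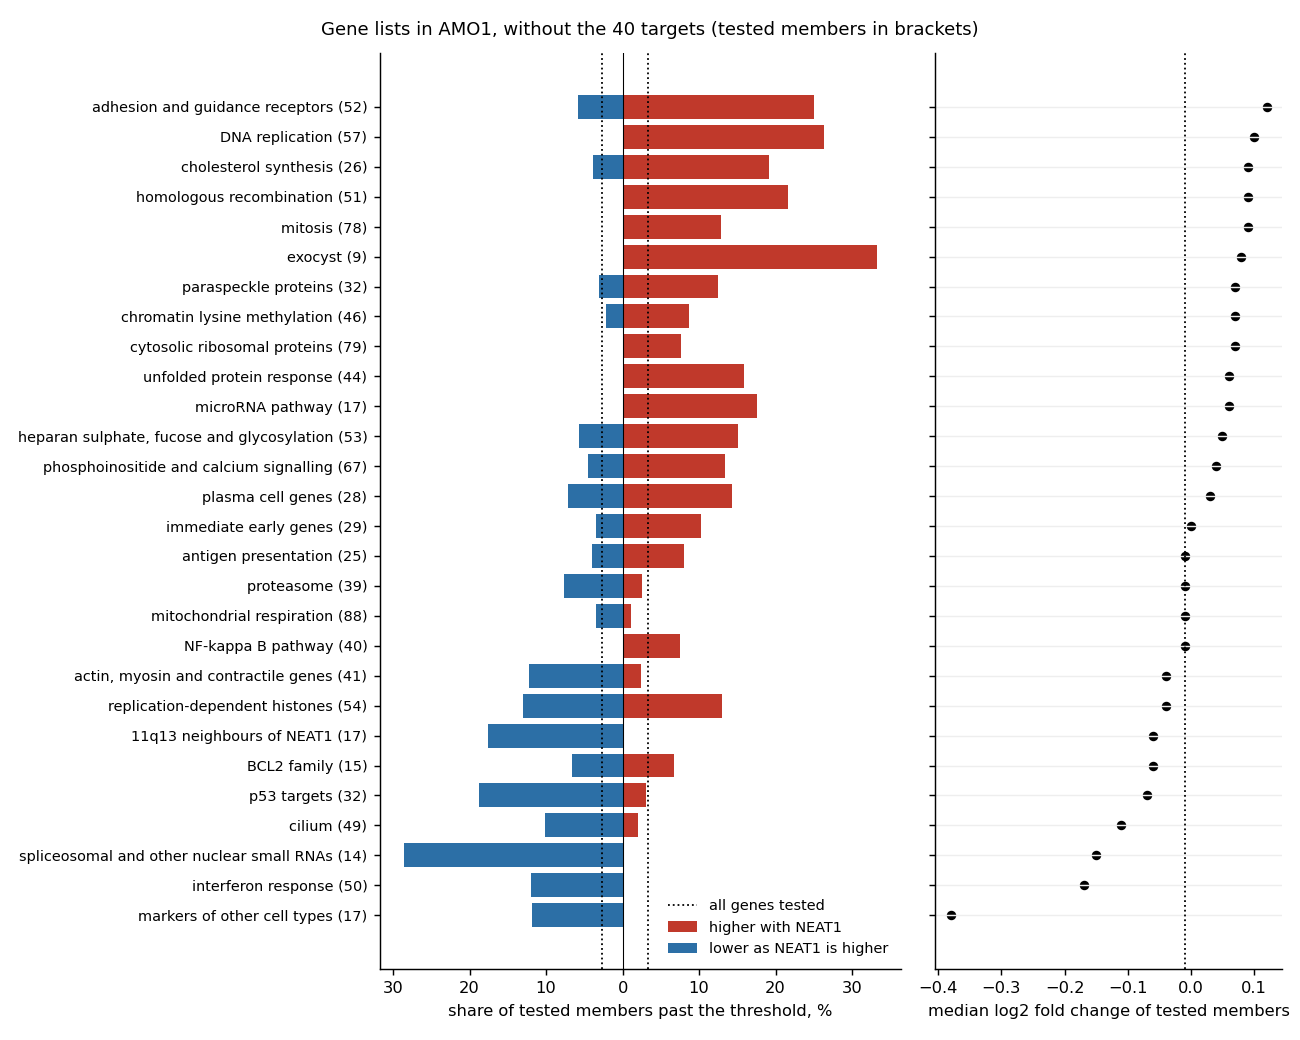
Left, share of the tested members of each list called higher with NEAT1 (red, to the right) or lower (blue, to the left), in percent, with the number tested in brackets and the shares over all genes as dotted lines; 1 of the lists is not drawn. Right, median log2 fold change of the tested members; DNA replication (26.3% higher, none lower) and the interferon response (none higher, 12% lower) lie on opposite sides.

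Of 57 DNA replication genes tested, 15 were called higher (26.3%) and none lower, the other 42 did not pass, the median log2 fold change was 0.10 and 46 lay above 0. Origin licensing, the loading of the replicative helicase on DNA, held 7 of the 15 among 16 tested: ORC1, ORC3 and ORC6 of the origin recognition complex, CDC6, MCM3, MCM6 and MCM10, with log2 fold changes of 0.15 to 0.23, none of them called without the block or without the letter A. PRIM2, the large subunit of primase, stood at 31.4, 31.3 and 33.5 against 21.2, 21.5 and 22.1 CPM and had the largest rise of the list, 0.57 (SE 0.0674, edgeR adjusted p = 4.50e-09). It also shares 12 bases with the stretch of NEAT1. POLA1, the catalytic subunit of polymerase alpha, was at 141, 143 and 151 against 114, 130.2 and 123 CPM (0.24, SE 0.0474, edgeR adjusted p = 0.000260), and every library labelled gN1E lay above those labelled SCR. RFC3, of the clamp loader, and RRM1, of ribonucleotide reductase, rose by 0.21 and 0.19. Without the letter block 2 of the 15 calls were made, without the letter A 2 and with library size only 5 (and 1 lower). Without the letter D, of the 15 only ORC3, CDC6, POLA1, PRIM2 and RFC3 were called. RFC3 was not called without the letter A or the block, nor RRM1 without A, D or the block, and with an offset for span POLA1 and RFC3 were not called.

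In homologous recombination, the repair of double-strand breaks on a sister chromatid, 11 of 51 tested members were called higher (21.6%) and none lower, with a median of 0.09. RAD51B, at 11.8, 12.4 and 11.2 against 4.88, 5.34 and 5.47 CPM, rose by 1.18. The helicase BRIP1 stood at 82.0, 80.1 and 84.3 against 59.6, 69.9 and 62.6 CPM (0.36, SE 0.0543, edgeR adjusted p = 1.57e-06). FANCD2, the protein that is ubiquitinated at crosslinks, was at 183, 189.5 and 187 against 155, 165 and 163 CPM (0.21, SE 0.0453, edgeR adjusted p = 0.00110), and EXO1, a nuclease of end resection, rose by 0.19. In these genes all libraries labelled gN1E were above all labelled SCR. Of 78 mitosis genes 10 were called higher (12.8%) and none lower, with a median of 0.09 and 66 above 0. ZWILCH, of the kinetochore, was at 36.7, 38.0 and 38.2 against 17.5, 18.3 and 19 CPM, the one large change of the list (1.04, SE 0.0672, edgeR adjusted p = 8.14e-19), and CENPU, CDC25A and ANLN rose by 0.25, 0.17 and 0.19. None of 14 checkpoint and anaphase genes was called in the edgeR test. Without the block 3 recombination and 1 mitosis genes were called higher, without the letter A 4 and 1, without the letter D 4 and 6, with library size only 3 and 2 (with 1 mitosis gene lower), and with an offset for span 6 and 6 (with 1 mitosis gene lower). EXO1, CDC25A, ANLN and CENPU lost their calls without the block and without A, and the first 3 of them also without D.

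Of 32 targets of p53 tested, 6 were called lower (18.8%) and 1 higher, with a median of -0.07 and 11 above 0. PHLDA3, an inhibitor of AKT, was at 29.5, 25.4 and 27.7 against 36.6, 32.8 and 36.7 CPM (-0.36, SE 0.0644, edgeR adjusted p = 5.44e-05). PIDD1, a scaffold of caspase-2, was at 27.6, 23.4 and 24.1 against 34.8, 27.9 and 34.9 CPM (-0.38, SE 0.0677, edgeR adjusted p = 6.80e-05), and FDXR, ferredoxin reductase, at 20.7, 17.8 and 16.6 against 24.2, 23.0 and 24.5 CPM (-0.38, SE 0.0758, edgeR adjusted p = 0.000340). In all of these the 3 libraries labelled gN1E lay below those labelled SCR, by a narrow gap for PIDD1. CDKN1A, the inhibitor p21, fell by 0.21 from a mean of 305 to one of 264 CPM, and DDB2 and BBC3 (PUMA) fell by 0.19 and 0.25. SESN2, which encodes a stress-induced sestrin, was the member called higher (196, 173 and 193 against 169, 152 and 152 CPM, 0.25). Without the block 3 were called lower, without the letter D 3 and with library size only 10. CDKN1A, DDB2 and BBC3 were not called without the block or without D, nor DDB2 and BBC3 without A.

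Interferon genes were lower or did not pass. Of 50 tested, 6 were called lower (12%) and none higher, with a median of -0.17 and 5 above 0. Many of these genes were low, and over all genes tested the median was -0.13 at an average log2 CPM under 0 and -0.07 between 0 and 2. Of the calls, 5 fell on 17 tested transducers of the signal and 1 on 33 tested genes that interferon induces. TYK2, the kinase bound to the type I interferon receptor, was at 132, 116 and 115 against 157, 136 and 152 CPM (-0.29, SE 0.0476, edgeR adjusted p = 8.86e-06). IRF7, a transcription factor of the response, was at 2.66, 1.98 and 2.02 against 4.52, 3.27 and 3.37 CPM (-0.74, SE 0.16, edgeR adjusted p = 0.00108). In both genes no library labelled gN1E reached those labelled SCR. IRF3 and IRF9 fell by 0.19 and 0.33, and IFI35, the induced gene that was called, by 0.33. IFIT3 (-0.34), ISG15 (-0.39) and OAS1 (-0.24) had edgeR adjusted p of 0.0563, 0.0626 and 0.134. Without the block 2 genes were called lower, without the letter A 4, without the letter D 3, and with library size only 13. IFI35, IRF3 and IRF9 were not called without the block, A or D, nor IRF9 without C.

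Of 25 antigen presentation genes tested, 2 were called higher (8%) and 1 lower (4%), shares near those of all genes at an average log2 CPM of at least 2, with a median of -0.01. ERAP1 and ERAP2, aminopeptidases that trim peptides for class I molecules, were at 181, 189.9 and 188 against 159.8, 165 and 148 CPM (0.24, SE 0.0463, edgeR adjusted p = 0.000208) and 146, 145 and 145 against 120.3, 123 and 113 CPM (0.29, SE 0.0468, edgeR adjusted p = 6.90e-06). NLRC5, the transactivator of class I genes, was at 98.9, 90.8 and 88.1 against 106, 105 and 115 CPM (-0.23, SE 0.0512, edgeR adjusted p = 0.00184). The peptidases were higher with NEAT1 and the transactivator lower, with no overlap of the labels, and none of 12 class II genes was called by edgeR. The NLRC5 call was lost without the letter D and without the block. In the NF-kappa B pathway 3 of 40 tested genes were called higher (CHUK, TRAF5 and TNFAIP3, by 0.14 to 0.20) and none lower, and with library size only these were not called and 2 others were lower. All 3 calls were lost without the block, those of CHUK and TRAF5 also in limma-voom and DESeq2, that of TRAF5 without each letter in turn, that of CHUK without A or D and that of TNFAIP3 without C or D.

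Of 28 plasma cell genes 4 were called higher (14.3%) and 2 lower (7.14%), with a median of 0.03. TENT5C, a poly(A) polymerase that is often lost in myeloma, was at 315, 322 and 305 against 271, 279 and 248 CPM (0.24, SE 0.0442, edgeR adjusted p = 8.48e-05). JCHAIN, the joining chain of secreted antibody, was at 3841.2, 4031.0 and 4318.1 against 3698.1, 3661.5 and 3438.7 CPM (0.17, SE 0.0451, edgeR adjusted p = 0.00927), and the transcription factor MEF2C rose by 0.21. POU2F2 and its co-activator POU2AF1 fell by 0.21 and 0.15, with overlapping labels for POU2F2. Without the letter D the calls of JCHAIN, MEF2C and POU2F2 were lost, and without the block those of JCHAIN and POU2F2. The POU2AF1 call was lost without the block and without each letter.

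In the unfolded protein response, by which secretory cells adjust the folding capacity of the endoplasmic reticulum, 7 of 44 tested were called higher (15.9%) and none lower, with a median of 0.06. PDIA6, a disulphide isomerase, was at 1019.3, 1040.4 and 1034.3 against 892, 842 and 812 CPM (0.28, SE 0.0439, edgeR adjusted p = 3.83e-06). SEL1L, the adaptor of the ubiquitin ligase that clears misfolded proteins, was at 518, 502 and 525 against 436, 454 and 433 CPM (0.22, SE 0.0440, edgeR adjusted p = 0.000280). All libraries labelled gN1E were above those labelled SCR in both. CREB3L2 rose by 0.19, the sensor ERN1 by 0.14, P4HB by 0.14 and EDEM1 by 0.19. Without the block 3 of the 7 were called, and without the letter D 3, PDIA6 and SEL1L among them, while CREB3L2, ERN1, P4HB and EDEM1 were lost in each. Of 39 proteasome genes 3 were called lower (7.69%), ADRM1, PSMC4 and PSMB10, by 0.26, 0.19 and 0.25. The activator PSME4 was called higher (1 of 39, 2.56%), by 0.17. None of these 4 calls was made without the block or without the letter D.

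In calcium signalling the call with the smallest adjusted p was that of PPP3CA, the catalytic subunit of calcineurin, the phosphatase that calcium and calmodulin activate. It was at 134, 140.2 and 139 against 82.6, 74.4 and 70.0 CPM (0.87, SE 0.0514, edgeR adjusted p = 5.89e-20), and PPP3CC rose by 0.24. CAMK4, a kinase of the same pathway, was at 17.3, 15.2 and 15.5 against 9.88, 9.91 and 9.53 CPM (0.71, SE 0.0898, edgeR adjusted p = 2.21e-08). In both, the libraries labelled gN1E were far above those labelled SCR in every letter pair. PRKCE, a protein kinase C, had the largest log2 fold change of the list (1.12) but a mean of only 0.620 CPM under SCR and 1.35 CPM under gN1E, and PLCL1, a phospholipase C-like protein, rose by 0.75 from 1.22 to 2.03 CPM. ATP2C1, a calcium pump of the Golgi, was at 170.1, 181 and 174 against 139, 148 and 138 CPM (0.30, SE 0.0457, edgeR adjusted p = 1.85e-06), and PLCB1, a phospholipase C, at 36.0, 42.0 and 41.3 against 30.7, 32.6 and 29.0 CPM (0.37, SE 0.0639, edgeR adjusted p = 3.70e-05). Among the 67 tested genes of phosphoinositide and calcium signalling 9 were called higher (13.4%) and 3 lower (ATP2A1, ATP2A3 and DGKZ), with a median of 0.04. The median span of the list was 128 kb. Of all tested genes of 100 to 300 kb, 10.6% were called higher, with a median of 0.05. Without the 6 members that share 12 or more bases with the stretch of NEAT1, 5 of 61 were called higher (8.20%). The same number, 5, was called without the block and without the letter A. PLCB1 and PLCL1 were not called with an offset for span. Without the block PLCL1, PPP3CC, ATP2A3 and DGKZ lost their calls, without A PRKCE, PLCL1 and ATP2A3, without C PRKCE and ATP2A3, and without D PLCL1, PPP3CC, ATP2A3 and DGKZ.

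Of 52 adhesion and guidance receptors tested, 13 were called higher (25.0%) and 3 lower, with a median of 0.12, or 0.05 with an offset for span. DCC, a netrin receptor, was at 92.2, 101 and 93.5 against 55, 52.7 and 44 CPM (0.92, SE 0.0557, edgeR adjusted p = 1.13e-19). SEMA4D, a semaphorin of lymphocytes, was at 33.6, 29.3 and 27.0 against 18.3, 17.4 and 18.1 CPM (0.74, SE 0.0723, edgeR adjusted p = 9.02e-12), and ROBO1, a receptor for SLIT proteins, at 50.4, 48.6 and 47.5 against 32.2, 30.5 and 32.8 CPM (0.62, SE 0.0605, edgeR adjusted p = 9.27e-12). None of their values under one label reached those under the other. NCAM1 (CD56), an adhesion molecule often found on myeloma cells, rose from a mean of 49.6 to 67.4 CPM (0.44), and TENM3 from 10.00 to 17.7 CPM (0.82). CDH1, PLXNA1 and PLXNB2 fell by 0.38, 0.18 and 0.25. Without the block 9 members were called higher and none lower. The calls of CDH1, PLXNA1, ITGB1, DLG1 and DLG2 were lost without D, and those of CDH1, PTPRM and DLG2 without C. Those of PTPRM and DLG1 were lost without A, and that of CDH1 also in limma-voom and DESeq2. The median span of the list was 302 kb, and of all tested genes over 300 kb 19.8% were called higher, with a median of 0.11. Without the 6 members sharing 12 or more bases the median log2 fold change was 0.07 and 10 of 46 were called higher (21.7%).

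Of genes of heparan sulphate, fucose and other glycans, 8 of 53 were called higher (15.1%) and 3 lower, with a median of 0.05. GPC6 and GMDS, described above, led the list. EXT2, a polymerase of the heparan sulphate chain, was at 45.9, 50.8 and 46.5 against 32.4, 29.4 and 29.1 CPM (0.65, SE 0.0626, edgeR adjusted p = 4.17e-12). HSPG2 and AGRN, 2 secreted proteoglycan cores, fell by 0.51 and 0.24, and GFUS, the enzyme after GMDS in GDP-fucose synthesis, fell by 0.22. The calls of AGRN and GFUS were lost without the block, A or D, that of GFUS also without C, and that of HSPG2 without A. Core proteins and the fucose pathway held members of both directions. Of the 9 exocyst subunits 3 rose: EXOC4, EXOC6B at 19.6, 19.6 and 23.4 against 13.5, 13.9 and 13 CPM (0.63, SE 0.0827, edgeR adjusted p = 7.65e-08) and EXOC3 at 61.6, 58.7 and 62.6 against 54.1, 48.7 and 51.0 CPM (0.25, SE 0.0554, edgeR adjusted p = 0.00154). These 3 calls stood without the block and with each letter left out.

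Of 49 cilium genes tested, 5 were called lower (10.2%) and 1 higher, with a median of -0.11. DYNC2I2, an intermediate chain of the ciliary dynein, was at 52.5, 39.0 and 42.5 against 60.6, 51.9 and 57.0 CPM (-0.34, SE 0.0584, edgeR adjusted p = 2.32e-05), with overlapping labels. ARL6 and TCTN1, of the BBSome and the transition zone, fell by 0.32 and 0.29. The member called higher, BBS9, was at 13.1, 16.5 and 13.6 against 9.95, 9.05 and 6.72 CPM (0.75, SE 0.1, edgeR adjusted p = 1.50e-07), and it shares 13 bases with the stretch of NEAT1. Among actin, myosin and contractile genes 5 of 41 were called lower (12.2%) and 1 higher. TTN, titin, was at 303, 353 and 315 against 387, 403 and 367 CPM (-0.25, SE 0.0446, edgeR adjusted p = 4.33e-05), and vimentin (VIM) fell by 0.15. MYO1G, a myosin of blood cells, was at 175, 161 and 154 against 209, 189 and 202 CPM (-0.29, SE 0.0462, edgeR adjusted p = 5.19e-06) and MYO1D, a related myosin, at 167, 168 and 162 against 144, 135 and 125 CPM (0.30, SE 0.0467, edgeR adjusted p = 4.02e-06), so this pair moved apart without overlap. Without the letter D 2 cilium genes were called lower, and without the block 2. DYNC2I2 was not called without the block, ARL6 and TCTN1 not without the block, C or D, and VIM not without the block, A or C.

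Of 32 paraspeckle proteins 4 were called higher (12.5%) and 1 lower, with a median of 0.07. HNRNPK, required for paraspeckles, was at 643, 616 and 647 against 514, 502 and 525 CPM (0.31, SE 0.0433, edgeR adjusted p = 3.79e-07) and shares 14 bases with NEAT1 in an exon. HNRNPA1 was at 931, 869.9 and 939 against 773, 736 and 847 CPM (0.22, SE 0.0435, edgeR adjusted p = 0.000324). RBMX and PSPC1 rose by 0.16 each, and ZC3H6 fell by 0.36 with overlapping labels. Of the other 7 genes required for paraspeckles, SFPQ and NONO included, none was called by edgeR. Without the block 1 member was called higher, and without the letter A 2. The calls of RBMX, PSPC1 and ZC3H6 were lost without A, D or the block, and that of HNRNPA1 without the block.

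The microRNA pathway had 3 of 17 members called higher (17.6%) and none lower. AGO2, the slicing Argonaute, was at 443, 429 and 414 against 359, 344 and 331 CPM (0.31, SE 0.0435, edgeR adjusted p = 2.40e-07). DROSHA, which cuts primary microRNAs in the nucleus, was at 139, 128 and 136 against 111, 110.0 and 114 CPM (0.27, SE 0.0473, edgeR adjusted p = 4.54e-05), and TNRC6C, of the silencing complex, rose by 0.26. All 3 calls stood without the block and without each letter. Of 46 genes of chromatin lysine methylation 4 were called higher (8.70%) and 1 lower (2.17%). The share called higher is near the 6.31% of all genes at an average log2 CPM of at least 2. KMT5B, which methylates histone H4, was at 40.2, 43 and 43.2 against 34.1, 35.5 and 31.9 CPM (0.32, SE 0.0619, edgeR adjusted p = 0.000280), KDM3B rose by 0.22, SMYD3 by 0.32 and KMT2C by 0.15, and the demethylase KDM6B fell by 0.22 with overlapping labels. KDM6B was not called without A, D or the block, nor SMYD3 without D or the block, nor KMT2C without the block or any of the letters.

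Cholesterol synthesis had 5 of 26 members called higher (19.2%) and 1 lower, with a median of 0.09. INSIG2 and INSIG1, which hold the sterol sensor in the endoplasmic reticulum, were at 25.7, 32.7 and 25.7 against 19.5, 18.9 and 14.3 CPM (0.67, SE 0.0768, edgeR adjusted p = 1.79e-09) and 479.5, 552 and 511 against 459, 438 and 364 CPM (0.29, SE 0.0622, edgeR adjusted p = 0.00944). MVD, a decarboxylase of the mevalonate pathway, was called lower, at 36.1, 37.2 and 32.7 against 51.1, 38.0 and 38.5 CPM (-0.26, SE 0.0672, edgeR adjusted p = 0.00997). The labels did not overlap in any of these 3. The count called higher was 2 without the letter D, 10 without the letter A and 1 without the block. MVD was not called without A. The calls of INSIG1 and MVD were lost without the block and in DESeq2, and that of INSIG1 with an offset for span.

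Of 15 BCL2 family genes tested 1 was called higher (6.67%) and 1 lower (6.67%). These shares are near those of all genes at an average log2 CPM of at least 2. BCL2 itself, the anti-apoptotic protein, was at 425, 440.0 and 440.0 against 349.6, 345 and 315 CPM. Its log2 fold change was 0.37 (SE 0.0450, edgeR adjusted p = 7.54e-09). All 3 libraries labelled gN1E were above those labelled SCR. BBC3, a BH3-only protein that opposes it, was at 35.6, 33.1 and 31.0 against 44.2, 35.2 and 39.2 CPM (-0.25, SE 0.0634, edgeR adjusted p = 0.00839), with overlapping labels, and was not called without the letter A or the letter D. Of 29 immediate early genes 3 were called higher (10.3%) and 1 lower (3.45%), with a median of -0.00. EGR2 was at 2.81, 2.44 and 3.18 against 1.77, 1.69 and 1.42 CPM (0.78, SE 0.185, edgeR adjusted p = 0.00374), EGR1 and NR4A1 rose by 0.31 and 0.25, and ZFP36, which destabilises mRNAs, fell by 0.24. Without the letter D the calls of EGR1, EGR2 and ZFP36 were lost, EGR1 was also lost without A or C, and NR4A1 without A. Without the block EGR1, NR4A1, ZFP36 and BBC3 were not called. EGR1 and NR4A1 were also not called in limma-voom or DESeq2.

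Ribosomal proteins had 6 of 79 members called higher (7.59%) and none lower, with 63 above 0 and a median of 0.07. Over all genes tested, the share called higher was 7.19% at an average log2 CPM of 5 to 7 and 12.2% at 7 or more. The medians there were 0.02 and 0.05. RPL22 was at 106, 108 and 113 against 93.4, 91.6 and 94.7 CPM (0.23, SE 0.0488, edgeR adjusted p = 0.000920). Without the block 2 were called higher, with an offset for span 25, and with library size only 2 were higher and 3 lower. Of 88 genes of mitochondrial respiration 3 were called lower (3.41%) and 1 higher (1.14%). Both shares are below those of all genes at an average log2 CPM of at least 2. Lower were NDUFB7, NDUFS7 and NDUFS8 of complex I, by 0.33, 0.25 and 0.30, and higher was MT-CO1 (0.20). The labels overlapped in all 4, and none of the 4 was called without the block. Without the letter D 14 were called higher and NDUFS8 was not called.

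Replication-dependent histones, whose mRNAs lack a poly(A) tail, had 7 called higher and 7 lower among 54 tested. H4C8 was at 356, 307 and 331 against 308, 259.5 and 288 CPM (0.22, SE 0.0438, edgeR adjusted p = 0.000393) and H2BC5 at 127, 98.9 and 115 against 157, 113 and 152 CPM (-0.30, SE 0.0482, edgeR adjusted p = 6.19e-06), and the labels overlapped in both. These genes have near-identical copies between which reads may be split, and without the block none of the 14 was called. Of 14 small nuclear RNAs 4 were called lower (28.6%), RNU4-1, RNU4-2, RNU6ATAC and RMRP, by 0.40, 0.40, 0.58 and 0.16. RNU4-2 was at 49.5, 134 and 48.2 against 58.3, 162 and 79.4 CPM, so that the letter C stood above the others under both labels and the difference between labels lay within each letter. None of the 4 was called without the block, RMRP was not called without C or D, RNU6ATAC not without D, and RNU4-2 and RNU6ATAC not in DESeq2. Among 17 neighbours of NEAT1 on 11q13, 3 were called lower (17.6%), among them SIPA1 and SLC25A45 by 0.27 and 0.33, and none higher. None of these 3 calls was made without the block or without the letter D.

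The same comparison in the libraries labelled H929 and LP1 was set beside AMO1 in a joint fit of all 18 libraries, whose names inside the tables exchange H929 with LP1. In that fit NEAT1 had log2 fold changes of 2.66 in AMO1, 2.75 under H929 and 2.12 under LP1. The difference between AMO1 and LP1, tested as an interaction by edgeR, passed for 234 of 26436 genes (0.885%): the change was larger, or less negative, in AMO1 for 193 and smaller for 41. The difference from H929 passed for none (0%), with 2207 genes at an unadjusted p under 0.05. All 12 of the largest AMO1 rises were called higher under H929 and 7 of 12 under LP1, and 8 of 12 differed from LP1. The shares of all genes called higher under H929 and LP1 are not given here, so those counts of calls have no background beside them. EXOC4 changed by 1.58 in AMO1, 1.64 under H929 and 0.61 under LP1, with a difference of 0.98 (edgeR adjusted p = 3.60e-08). LTB4R changed by 1.18, 1.19 and 0.05 in the same order, with a difference from LP1 of 1.13 (edgeR adjusted p = 6.63e-06). GPC6 had -1.31 under LP1 with a standard error of 1.22, too wide for a direction.

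Of the 12 largest AMO1 falls 3 were called lower under H929 and 2 under LP1, and 2 differed from LP1, DYNC2H1 by -0.73 and FAM227A by -0.83. For these calls too, the shares of all genes called lower under H929 and LP1 are not given here. The genes that share 13 or more bases with the stretch, which was chosen on AMO1 alone, had medians of 0.31 in AMO1, 0.31 under H929 and 0.13 under LP1, and those sharing 11 or fewer had -0.02, -0.00 and -0.02.

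**Figure D5:**
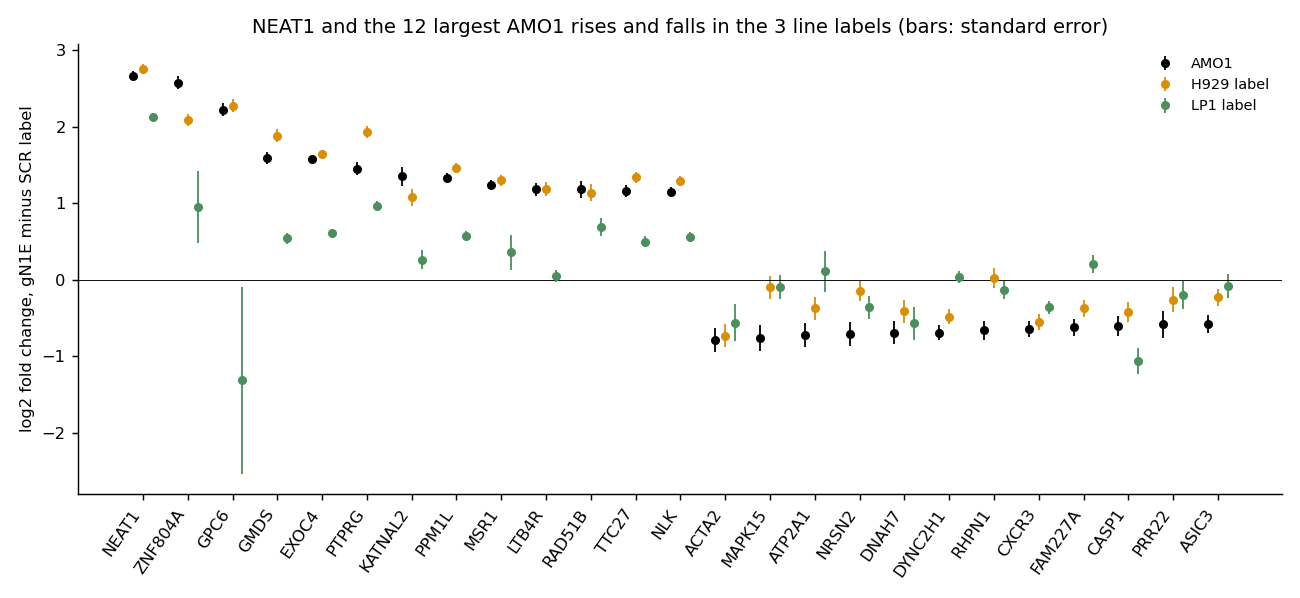
Log2 fold changes (libraries labelled gN1E minus labelled SCR, bars: standard error) of NEAT1 and of the largest AMO1 rises and falls in AMO1 and under the labels H929 and LP1, from 1 joint fit of 18 libraries. The rises under H929 lie near those of AMO1, those under LP1 are smaller for most genes, and GPC6 under LP1 has a standard error of 1.22.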

How the data were processed

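RNA-seq of 18 libraries of 3 myeloma lines was deposited, and the 6 libraries labelled AMO1 were analysed, with the other 12 used only in a joint fit. Per the labels and the study's methods, the authors prepared stranded libraries of total RNA, aligned read pairs to hg38 with STAR 2.7.10a and counted them with featureCounts 1.6.4 on GENCODE release 43. The deposited values are raw counts per gene with no normalization, for 62703 genes, 62686 of which had a symbol. All 18 tables carry inside them a name that exchanges gN1E and SCR against the sample label, and groups were taken from the labels.

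From the counts, edgeR 4.0.16 in R 4.3.3 was run on genes that reached 10 reads in 1 or more of the 6 libraries, with TMM, a robust quasi-likelihood fit, the replicate letter as a block and Benjamini-Hochberg adjustment at 0.05. The block was part of the question. Deviations of same-letter libraries from their group means were correlated, by 0.198, 0.16 and 0.121 (A, C, D), over 14850 genes. These genes had a mean CPM of 1 or more. The highest correlation with another letter was 0.0621, 0.0915 and 0.0915 over the same genes. Over all genes tested the same-letter values were 0.0623, 0.0833 and 0.0522, against at most 0.00979, -0.0186 and 0.00979 with another letter. Differences between lines were interactions in a fit of 18 libraries with a line-by-letter block. The alternatives were no block, limma-voom 3.58.1 with the block, DESeq2 1.42.0, scaling by RLE or by library size only, other filters on low counts, each letter left out, an offset for span, thinning to 1 depth, and an adjusted p of 0.1 with a 1.5-fold change. Lists without members that share 12 bases, the opposite strand and the level limit of the match counts were added after seeing the data.

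Named were NEAT1, the 12 largest rises and falls past the threshold at an average log2 CPM of at least 2 and the 6 at 7 or more (not among the 40 targets, same sign in each letter pair), and from each list up to 4 called members with the smallest adjusted p. Other names were chosen after their values were seen, among them further called members of the lists. The members, lists and tests were chosen with earlier results of these data known. NEAT1 words of 12 bases were matched to the transcribed strand of genes of GENCODE release 44 on hg38, which gives 99.628% of the genes the coordinates of the deposited tables (Python 3.11.15, pysam 0.24.0, pandas 2.3.3, matplotlib 3.10.9). Some genes and 1 gene list are not reported here.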

Additional observations from a re-analysis of the deposited data

Results flagged for a closer look

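For 38 of the named genes the change in AMO1 differed from that in the libraries labelled LP1 by an edgeR interaction test with Benjamini-Hochberg adjustment over 26436 genes. The values below are the AMO1 log2 fold change minus that under LP1, each taken as gN1E minus SCR by label. NEAT1 itself differed by 0.53. Of the largest rises, LTB4R differed by 1.13, KATNAL2 by 1.08, GMDS by 1.04, EXOC4 by 0.98, PPM1L by 0.76, TTC27 by 0.66, NLK by 0.59 and PTPRG by 0.49. The abundant rises differed by 0.67 (FOXN3), 0.64 (STRBP), 0.63 (MDH1), 0.51 (RALY), 0.50 (LRBA) and 0.47 (PARP1). All of these were larger in AMO1.

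Members of the gene groups differed in the same direction: PPP3CA by 0.76, SEMA4D by 0.68, DOCK8 by 0.50, ARHGAP26 by 0.48, ROBO1 by 0.45, DOCK9 by 0.36 and ATP2C1 by 0.30. So did ZWILCH by 0.66 and ANLN by 0.31 of mitosis, AGO2 by 0.31 of the microRNA pathway and HNRNPK by 0.26 of the paraspeckle. Genes of plasma cells, secretion and antigen presentation differed by 0.34 (ERAP2), 0.33 (ERAP1), 0.32 (MEF2C), 0.30 (CREB3L2), 0.27 (TENT5C) and 0.27 (PDIA6). EGR2 differed by 1.46.

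In 5 genes called lower in AMO1 the difference was of either sign. It was -0.83 for FAM227A, -0.73 for DYNC2H1, -0.46 for POU2F2 and -0.46 for NLRC5, where the value under LP1 was the higher one, and 0.54 for TTN, where the value under LP1 was the lower one. The part of line, of library and of the level of NEAT1 in these differences was not tested.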

How the results depend on the processing

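NEAT1 in AMO1 kept its direction and its call in every alternative run, with log2 fold changes of 2.62 to 2.67 (2.58 to 2.73 with a letter left out). With no replicate block 473 genes passed (377 higher, 96 lower), and of 132 named genes that were called 79 kept their call. Leaving out 1 letter gave 775 (without D) to 1431 (without C) calls, 535 to 754 higher and 240 to 677 lower, with 95, 110 and 125 named calls kept without D, A and C. DESeq2 called 926 genes, 309 of them lower. An adjusted p of 0.1 with a 1.5-fold change left 304 calls (156 higher, 148 lower) and 41 named ones. Scaled by library size only, 1061 genes were lower, and with no filter on low counts 47.3% of 1410 calls were higher, against 55.7%. No named gene was called in the opposite direction in any alternative. The difference from LP1 passed for 234 genes, 196 with no block and 163 with library size only, and that from H929 for 0 in each. The median of genes sharing 12 or more bases with the stretch, 0.18, was 0.09 at 11 or more, 0.31 at 13 or more and 0.03 for the opposite strand. Since the stretch was chosen on these log2 fold changes, these medians test nothing. A letter left out means 2 libraries fewer; for the other shifts the cause was not tested. After thinning to the smallest total 1363 genes were called. In the shallowest library, with 28061606 counts, falls of genes under 1 CPM rest on few reads.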
